A study of Mus musculus with 12 samples.

Results

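Colony-stimulating factors are cytokines that drive the growth, survival and activation of myeloid cells, and 7 mouse genes of this system were described here: Csf2rb, Csf2rb2, Csf2ra, Il3ra, Csf3r, Csf1r and Csf1. All probe sets that the array's annotation assigned to one of these symbols were taken, which gave 15 probe sets, 14 of them with 1 symbol, out of 45037 on the array. The 7 genes stood among 18193 genes with a probe set of 1 symbol. They had been picked from the levels in these same 12 arrays, so their levels and differences are a description and carry no test.

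Signalling through these receptors follows a common plan. GM-CSF, interleukin 3 and interleukin 5 each bind an alpha chain of their own, which then pairs with a shared beta chain; mice have a second beta chain, encoded by Csf2rb2, that serves interleukin 3 alone. G-CSF acts through the single-chain receptor Csf3r, and M-CSF, the product of Csf1, through the receptor tyrosine kinase Csf1r, which marks monocytes and macrophages. Encephalitogenic T cells, which cause experimental autoimmune encephalomyelitis, are known to make GM-CSF themselves.

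The study hybridised RNA of 4 T cell populations of strain C57BL/10.RIII mice to Affymetrix Mouse430_2 arrays, with 3 arrays each. The arrays labelled iFoxA1Treg hold cells titled IFN-beta induced, with the marker field CD4hi,PD-L1hi. The nFoxA1Treg cells are titled neuron induced and carry the same marker field, Treg cells are given as CD4+,TGFbeta+, and EncT are encephalitogenic T cells given as CD4+; FoxA1 is a forkhead transcription factor. The labels do not say that the 3 arrays of a group came from separate animals or cultures, so errors and p-values measure the spread between these samples, which may be technical.

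Levels are given as log2(value + 16) of the deposited values after quantile normalisation, so that a probe set with a value of 0 lies at 4. The median probe set lay at 5.44, and 10% of the levels were above 8.77. A difference is always the first-named group minus the second on this scale, which understates changes of dim probe sets, and its standard error (SE) comes from the fit across all probe sets.

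The arrays labelled iFoxA1Treg differed widely from the other 9 and went against their label. Cd4, the marker that all 4 populations share by label, had a level of 5.18, 5.13 and 5.07 in the arrays labelled iFoxA1Treg, against 10.36 to 10.61 in the other 9. Xist, the RNA of the inactive X chromosome, lay between 4.24 and 4.61 in those 3 arrays and between 10.61 and 11.79 in the other 9, while the Y-linked gene Eif2s3y lay between 9.57 and 9.81 in them and between 4.0 and 4.74 elsewhere. The 9 others correlated with the 3 over all probe sets at no more than 0.880, and with arrays of their own group at 0.987 or above.

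Markers of several other blood cells moved with this split. The summed value of 16 macrophage and monocyte markers was 29967 to 30808 in the arrays labelled iFoxA1Treg, against 743 to 822 in nFoxA1Treg, 764 to 920 in Treg and 1043 to 1318 in EncT. That of 12 neutrophil markers was 53898 to 54063, against 252 to 332, 291 to 304 and 328 to 670 in the same order, and that of 9 B cell markers was 28835 to 31587, against 176 to 211, 217 to 245 and 308 to 400. The sum of 10 T cell markers ran the other way, at 5659 to 5949 in the arrays labelled iFoxA1Treg, against 18734 to 19576, 19655 to 19673 and 20283 to 21246. That of 5 CD8 T and NK cell markers was lower too, at 1017 to 1065, against 5624 to 5753, 5845 to 6008 and 2527 to 7001. Yet 3 of these 5 markers passed as higher and 2 as lower in the comparison with each other group (adjusted p under 0.05, limma). Mast cell, basophil and eosinophil markers, 10 in number, summed to 1117 to 1257 in the arrays labelled iFoxA1Treg. In the same order the other groups had 94 to 137, 87 to 156 and 116 to 5120. Among them 7, 7 and 5 passed as higher and 0, 0 and 2 as lower at that threshold. A sum follows its brightest genes. At an adjusted p under 0.05 in limma, 13, 12 and 12 of the 16 macrophage and monocyte markers were higher than in nFoxA1Treg, Treg and EncT. In each comparison 2 were lower, and 60.1%, 59.4% and 58.5% of all genes passed. Of the macrophage and monocyte markers, C1qa, C1qc and Cd163 were within 0.25 of the floor of 4 in all 3 other groups, as were the neutrophil markers S100a8, S100a9, Prtn3, Camp and Cxcr2. The part these cells have in any difference that involves the arrays labelled iFoxA1Treg was not tested, and fewer cells of a type cannot be told apart from less RNA per cell in bulk samples.

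One EncT array stood apart as well. EncT replicate 1 had Tpsb2, a mast cell tryptase, at 11.88, against 5.32 to 5.63 in the other 8 arrays of nFoxA1Treg, Treg and EncT. Carboxypeptidase A3 (Cpa3) was at 9.47 there, against no more than 6.55 in the other 8, mast cell chymase (Cma1) at 8.67, against no more than 5.76, and the IgE receptor chain Fcer1a at 7.94, against no more than 5.57. Among the other mast cell, basophil and eosinophil markers, Ms4a2 and Prg2 were also highest in this array. Siglecf, Epx and Mcpt8 were inside the range of the other 8. Mcpt4 was below it, at 4.76 against 4.88 to 5.22. The 10 mast cell, basophil and eosinophil markers summed to 5120 in EncT replicate 1, and to 228 and 116 in EncT replicates 2 and 3. Its 5 CD8 T and NK cell markers summed to 2527, against 6134 and 7001 in the other EncT arrays. Differences of nFoxA1Treg and Treg from EncT are therefore given with and without this array for the genes whose values it moved.

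The promoters of Csf2rb and Csf1r were not read. Of the 5 promoters read, sequence is shown for the 3 that held the core letters bound by Spi1 (PU.1), the master regulator of myeloid receptor genes. All 3 belong to receptor genes. Each run is the 250 bases before the gene's start in RefSeq's GRCm38.p6 annotation, 5′ to 3′ on the gene's strand. Capitals mark GAGGAA read on either strand (TTCCTC is the same motif on the other strand) and TTCNNNGAA, the pattern that STAT factors bind.
Csf2rb2 promoter, chr15:78305722-78305971, minus strand: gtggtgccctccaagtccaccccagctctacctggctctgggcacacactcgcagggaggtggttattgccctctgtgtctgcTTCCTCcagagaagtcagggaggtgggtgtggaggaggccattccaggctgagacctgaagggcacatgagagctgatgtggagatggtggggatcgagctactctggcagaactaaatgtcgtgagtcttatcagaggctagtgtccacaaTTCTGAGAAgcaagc
Csf2ra promoter, chr19:61228419-61228668, minus strand: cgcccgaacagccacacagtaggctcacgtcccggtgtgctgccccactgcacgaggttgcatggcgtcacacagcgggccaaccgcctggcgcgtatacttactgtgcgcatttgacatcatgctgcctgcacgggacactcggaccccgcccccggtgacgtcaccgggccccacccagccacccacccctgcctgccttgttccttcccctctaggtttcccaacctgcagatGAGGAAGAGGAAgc
Csf3r promoter, chr4:126024409-126024658, plus strand: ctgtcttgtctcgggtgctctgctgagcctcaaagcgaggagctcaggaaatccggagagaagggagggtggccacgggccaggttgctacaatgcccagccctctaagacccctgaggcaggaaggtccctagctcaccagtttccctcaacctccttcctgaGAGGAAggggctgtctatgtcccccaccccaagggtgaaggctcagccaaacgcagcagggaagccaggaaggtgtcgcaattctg
GAGGAA began 167 bases before the start in Csf2rb2, 14 and 8 bases before it in Csf2ra, and 86 bases before it in Csf3r; it was not in the windows of Il3ra and Csf1. Of 32851 mouse promoters of this length, 23.3% held it. TTCNNNGAA began 15 bases before the start of Csf2rb2 alone among the 5 promoters read, and 7.02% of all promoters held it. The C/EBP pattern TTGCGCAA was in none of the 5, and in 0.164% of all. A match is a run of letters and not a shown binding site.

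Csf2rb encodes the shared beta chain, the signalling part of the GM-CSF, interleukin 3 and interleukin 5 receptors. Its brightest probe set, 1455660_at, lay at 9.99, 9.91 and 9.95 in the arrays labelled iFoxA1Treg, at 4.13, 4.34 and 4.42 in nFoxA1Treg, at 5.22, 4.92 and 5.06 in Treg, and at 6.84, 5.93 and 5.34 in EncT. No 2 of the 4 groups overlapped: the arrays labelled iFoxA1Treg were highest, EncT next, then Treg, and nFoxA1Treg lowest. In rank among all probe sets, the group mean stood at the 95.9th percentile in the arrays labelled iFoxA1Treg, the 11.6th in nFoxA1Treg, the 40.9th in Treg and the 61.1st in EncT.

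The difference in Csf2rb 1455660_at was 5.65 for iFoxA1Treg minus nFoxA1Treg, 4.88 for iFoxA1Treg minus Treg and 3.91 for iFoxA1Treg minus EncT (SE 0.24 each, n = 3 arrays per group). Among the other groups it was -1.74 for nFoxA1Treg minus EncT, -0.97 for Treg minus EncT and -0.77 for nFoxA1Treg minus Treg. Without EncT replicate 1 the differences from EncT were 4.32 for the arrays labelled iFoxA1Treg, -1.33 for nFoxA1Treg and -0.56 for Treg, the last a change of more than 1.5 times, and the groups still did not overlap.

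The other Csf2rb probe set, 1421326_at, was dimmer and gave the same order of group means. It lay at 8.16, 8.15 and 8.14 in the arrays labelled iFoxA1Treg, at 4.0, 4.14 and 4.03 in nFoxA1Treg, at 4.24, 4.03 and 4.10 in Treg, and at 5.33, 4.70 and 4.73 in EncT. Here nFoxA1Treg and Treg overlapped and both lay next to the floor, while all 3 EncT arrays were above all 6 of them. The difference was -0.86 for nFoxA1Treg minus EncT and -0.79 for Treg minus EncT (SE 0.14), and -0.66 and -0.59 without EncT replicate 1.

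Csf2rb2, the beta chain particular to interleukin 3 in mice, lies next to Csf2rb on chromosome 15, with no protein-coding gene between them in RefSeq. Its probe set 1449360_at lay at 8.03, 7.98 and 7.91 in the arrays labelled iFoxA1Treg, at 4.34, 4.0 and 4.06 in nFoxA1Treg, at 4.15, 4.38 and 4.15 in Treg, and at 6.18, 5.15 and 4.68 in EncT. Its order followed that of Csf2rb 1421326_at, with nFoxA1Treg and Treg overlapping at the floor and EncT above both. The difference was 3.84 for iFoxA1Treg minus nFoxA1Treg, 3.75 for iFoxA1Treg minus Treg and 2.63 for iFoxA1Treg minus EncT (SE 0.25). It was -1.20 for nFoxA1Treg minus EncT and -1.11 for Treg minus EncT, and -0.78 and -0.69 without EncT replicate 1, a change of more than 1.5 times. For iFoxA1Treg minus EncT it was 3.05 without that array.

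**Figure D1:**
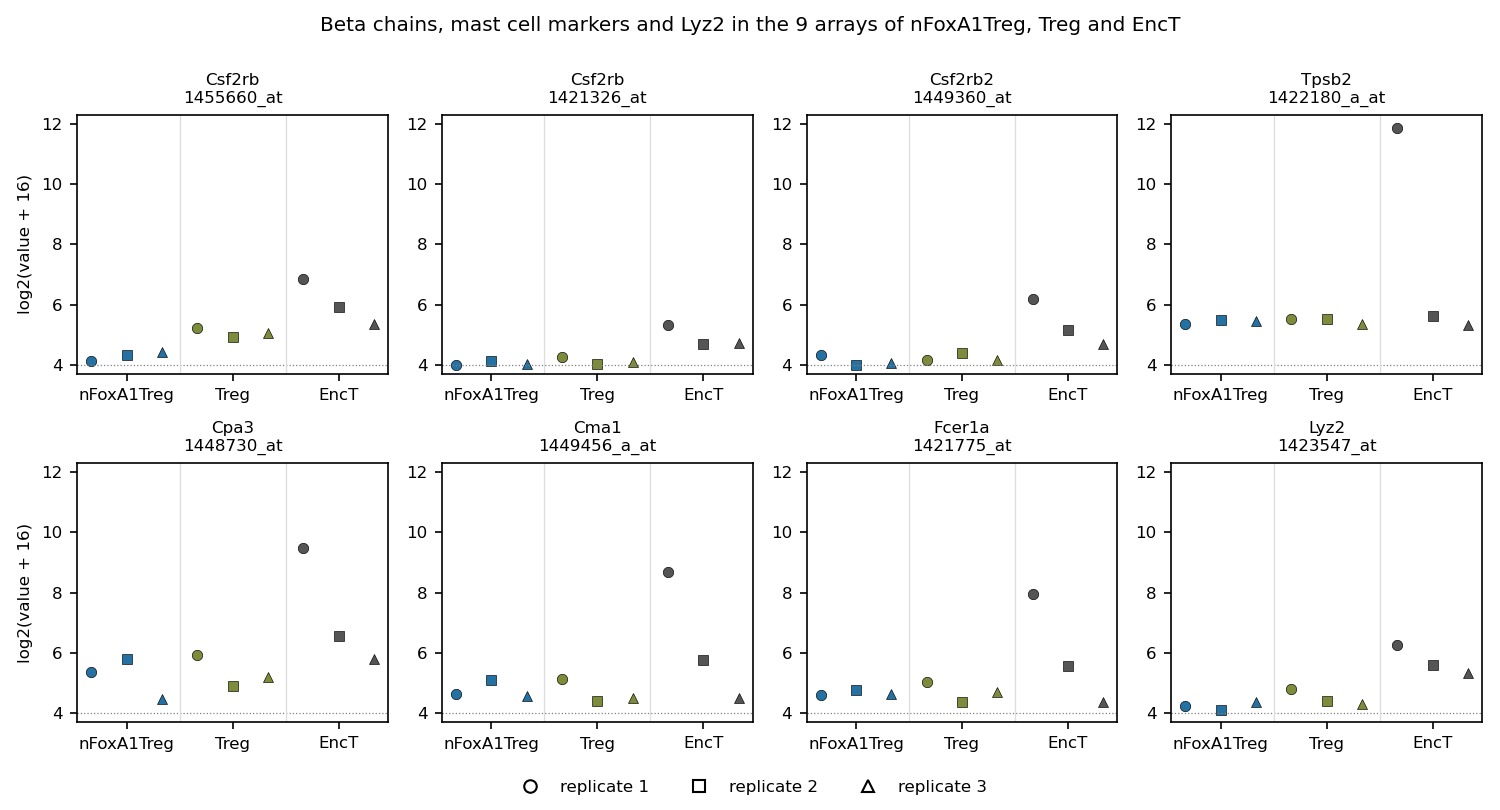
Levels, as log2(value + 16), of both beta chains, 4 mast cell markers and the macrophage marker Lyz2 in the 9 arrays of nFoxA1Treg, Treg and EncT; each point is an array, its shape is the replicate number, and the dotted line at 4 is the level of a value of 0. EncT replicate 1 is the highest array in every panel, and for both beta chain genes EncT replicates 2 and 3 also lie above the 6 nFoxA1Treg and Treg arrays.

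Mast cells carry both beta chains. The 3 EncT arrays ran in the same order for Csf2rb 1455660_at, at 6.84, 5.93 and 5.34, as for Fcer1a, at 7.94, 5.57 and 4.37. Lyz2, a lysozyme of macrophages and neutrophils, was 6.25, 5.61 and 5.33 in the EncT arrays, against 4.11 to 4.35 in nFoxA1Treg and 4.29 to 4.81 in Treg. In EncT replicate 3, Fcer1a and Cma1 (4.49) were inside the range of the 6 nFoxA1Treg and Treg arrays. Csf2rb, Csf2rb2 and Lyz2 were above that range. Tpsb2 was at 5.32 in EncT replicate 3, the lowest of the 8 arrays other than EncT replicate 1, and at 5.63 in EncT replicate 2. Cpa3 was at 5.78 in EncT replicate 3, against 6.55 in EncT replicate 2 and 4.46 in the lowest of those 8 arrays. No statement is made on Cpa3 against the range of the 6 nFoxA1Treg and Treg arrays. The part that mast or myeloid cells have in the EncT beta chain levels was not tested.

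A further probe set, 1450200_s_at, is annotated to both beta chain genes, so no gene is named for it. It ran the other way, at 4.22, 4.40 and 4.49 in the arrays labelled iFoxA1Treg, against 4.86 to 5.28 in nFoxA1Treg, 5.09 to 5.37 in Treg and 5.25 to 5.45 in EncT. It is annotated to the same transcript record as Csf2rb 1421326_at, which was highest in the arrays labelled iFoxA1Treg, so the 2 probe sets disagreed on direction.

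Csf2ra, the alpha chain that gives the GM-CSF receptor its specificity, had a middling level in all 12 arrays by its brighter probe set. Its brighter probe set, 1420703_at, lay at 7.58, 7.40 and 7.51 in the arrays labelled iFoxA1Treg, at 5.99, 5.99 and 6.68 in nFoxA1Treg, at 6.41, 6.29 and 6.54 in Treg, and at 6.60, 6.34 and 6.33 in EncT. The arrays labelled iFoxA1Treg were above all others, and the other 3 groups overlapped. The difference was 1.28 for iFoxA1Treg minus nFoxA1Treg and 1.08 for both iFoxA1Treg minus Treg and iFoxA1Treg minus EncT (SE 0.15). Between nFoxA1Treg, Treg and EncT it lay between -0.20 and -0.01. Without EncT replicate 1 it was 1.17 for iFoxA1Treg minus EncT, -0.11 for nFoxA1Treg minus EncT and 0.08 for Treg minus EncT, the last with its sign turned.

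The second Csf2ra probe set, 1420704_at, had the same layout at lower levels. It lay at 5.65 to 5.92 in the arrays labelled iFoxA1Treg, against 4.79 to 5.06 in nFoxA1Treg, 4.64 to 4.96 in Treg and 4.60 to 5.18 in EncT. In neither Csf2ra probe set was EncT above nFoxA1Treg and Treg in all arrays, as it was in the probe sets of 1 symbol of both beta chain genes. The contrast between the genes was not tested.

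Il3ra, the alpha chain for interleukin 3, was the flattest of the 7 genes. Its probe set 1419712_at lay at 6.03, 6.25 and 6.11 in the arrays labelled iFoxA1Treg, at 6.42, 6.33 and 6.20 in nFoxA1Treg, at 6.52, 6.24 and 6.41 in Treg, and at 6.19, 6.18 and 6.19 in EncT. The arrays labelled iFoxA1Treg overlapped with each other group. Both nFoxA1Treg and Treg were above EncT in all arrays, by 0.13 and 0.20 with or without EncT replicate 1 (SE 0.10 over all arrays), and these were the sole differences in which a receptor probe set was higher in either group than in EncT without overlap.

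Csf3r, the G-CSF receptor of neutrophils and their precursors, was the most sharply split. It lay at 8.46, 8.47 and 8.63 in the arrays labelled iFoxA1Treg and at 4.0 in each of the other 9, where the deposited log2 values were between -9.60 and -8.79. It was listed at a value of practically 0 in those 9 arrays, so no fold change is given. EncT replicate 1, with its high mast cell markers, had no Csf3r signal either.

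Csf1r, the M-CSF receptor kinase, had 3 probe sets. The brightest, 1419872_at, lay at 9.91, 10.08 and 10.05 in the arrays labelled iFoxA1Treg, at 4.17, 4.94 and 4.56 in nFoxA1Treg, at 4.61, 5.09 and 4.68 in Treg, and at 5.37, 5.13 and 5.25 in EncT. The arrays labelled iFoxA1Treg were far above the rest, EncT was narrowly above both other groups, and nFoxA1Treg and Treg overlapped. The difference was 5.46 for iFoxA1Treg minus nFoxA1Treg, 5.22 for iFoxA1Treg minus Treg and 4.76 for iFoxA1Treg minus EncT (SE 0.16). It was -0.70 for nFoxA1Treg minus EncT and -0.46 for Treg minus EncT, and -0.63 and -0.40 without EncT replicate 1.

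The other Csf1r probe sets gave the same high group with smaller gaps. Probe set 1419873_s_at lay at 8.18 to 8.27 in the arrays labelled iFoxA1Treg, against 4.01 to 4.94 in the other 9. Probe set 1423593_a_at lay at 7.0 to 7.17 in the arrays labelled iFoxA1Treg, against 5.25 to 6.14 in the other 9, and its difference was 1.20 to 1.46. In neither did EncT lie above Treg without overlap.

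Csf1, the one ligand among the 7 genes, ran opposite to its receptor. Its brightest probe set, 1460220_a_at, lay at 7.02, 6.99 and 6.94 in the arrays labelled iFoxA1Treg, at 8.36, 8.21 and 7.90 in nFoxA1Treg, at 8.09, 7.89 and 8.01 in Treg, and at 8.88, 8.22 and 8.97 in EncT. The arrays labelled iFoxA1Treg were below all others, nFoxA1Treg and Treg overlapped, and EncT was above Treg but overlapped with nFoxA1Treg. The difference was -1.17 for iFoxA1Treg minus nFoxA1Treg, -1.01 for iFoxA1Treg minus Treg and -1.71 for iFoxA1Treg minus EncT (SE 0.15). It was -0.53 for nFoxA1Treg minus EncT and -0.69 for Treg minus EncT, and -0.44 and -0.60 without EncT replicate 1.

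All 4 Csf1 probe sets were lowest in the arrays labelled iFoxA1Treg without overlap. Probe set 1448914_a_at lay at 5.87 to 6.01 in the arrays labelled iFoxA1Treg, against 6.95 to 7.36 in nFoxA1Treg, 7.0 to 7.27 in Treg and 7.38 to 7.84 in EncT. Probe set 1425155_x_at lay at 4.68 to 5.04 in the arrays labelled iFoxA1Treg, against 6.15 to 6.38, 5.85 to 6.02 and 6.25 to 6.77 in the same order. Probe set 1425154_a_at differed least, at 5.51 to 6.37 in the arrays labelled iFoxA1Treg, against 6.56 to 6.95 in the other 9.

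**Figure D2:**
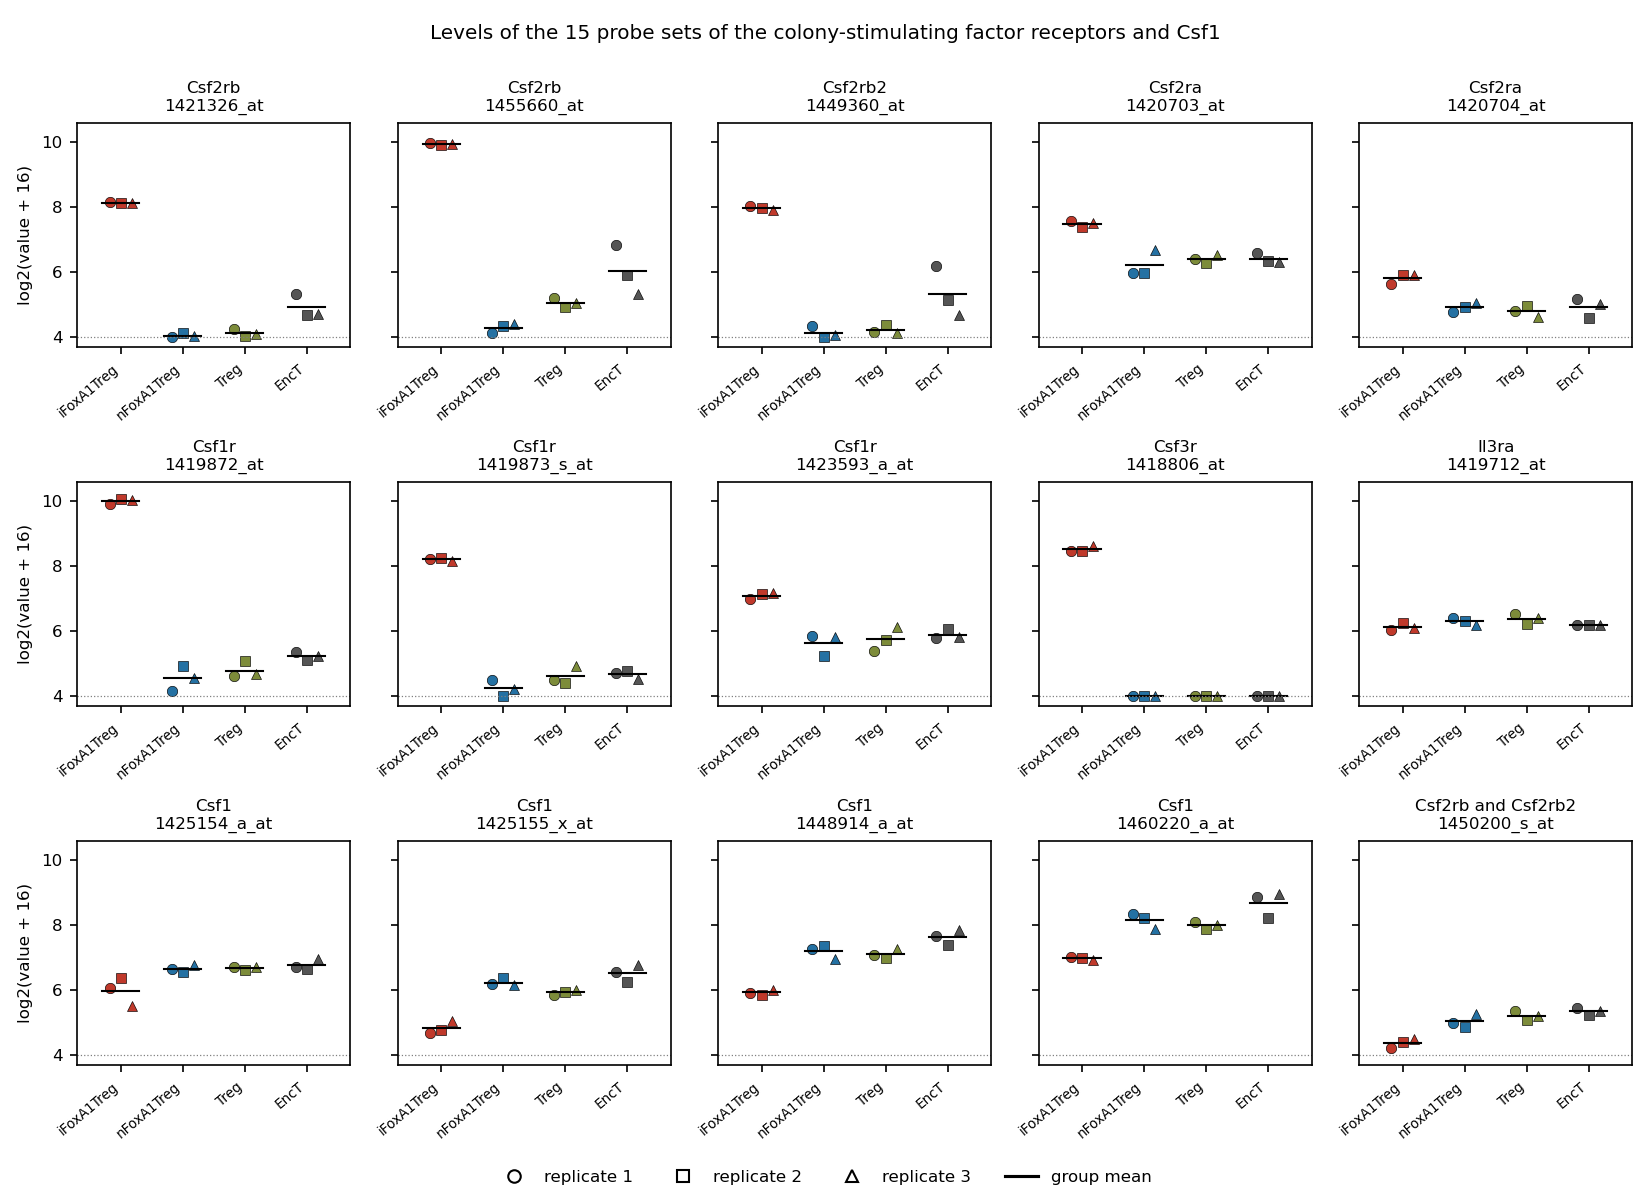
Levels, as log2(value + 16), of the 15 probe sets in the 12 arrays by group; points are arrays, shapes are replicate numbers, bars are group means and the dotted line at 4 is the level of a value of 0. In probe sets of 1 symbol, both beta chains, Csf1r and Csf3r are highest in the arrays labelled iFoxA1Treg, Csf1 is lowest there, and Il3ra hardly differs between groups. Probe set 1450200_s_at, annotated to both beta chain genes, is lowest in the arrays labelled iFoxA1Treg.

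Counted over the 15 probe sets, 14, 15 and 14 had an adjusted p under 0.05 in limma's fit for iFoxA1Treg minus nFoxA1Treg, Treg and EncT. Of all probe sets, 54.8%, 54.3% and 53.4% passed in these comparisons, so nothing is read from the members' counts. Values did not overlap for 14 probe sets in each, against 61.3%, 61.1% and 58% of all probe sets. For nFoxA1Treg minus Treg, 0 of 15 passed, against 0.0155% of all, and 3 of the 15 had an unadjusted p under 0.05; values of 2 probe sets did not overlap, against 10.8% of all. For nFoxA1Treg minus EncT 6 of 15 passed, all lower, against 10% of all in either direction and 5.1% lower, and values of 7 did not overlap, against 24.5% of all. For Treg minus EncT 6 of 15 passed, all lower, against 8.43% of all in either direction and 4.5% lower, and values of 8 did not overlap, against 24.4% of all. Since the probe sets were chosen from these levels, these shares describe them only.

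**Figure D3:**
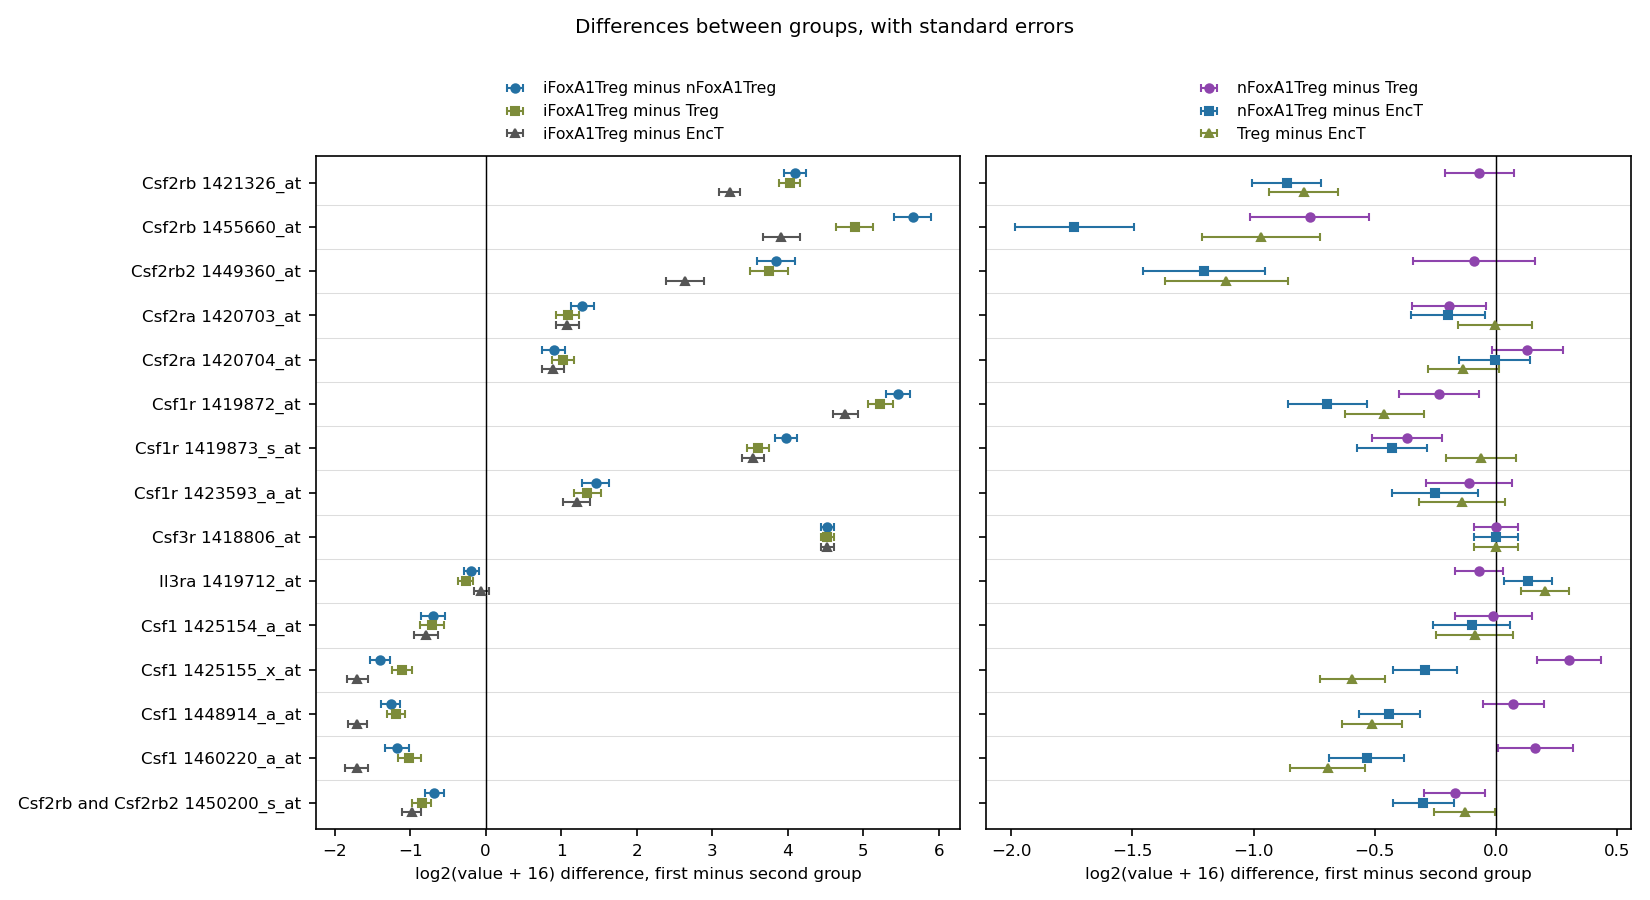
Differences in log2(value + 16) between groups for the 15 probe sets, first-named minus second-named group, with bars for the standard error of the fit; the panels have different scales. The left panel holds the 3 comparisons with the arrays labelled iFoxA1Treg, which reach 5.65, and the right panel those among nFoxA1Treg, Treg and EncT, where both beta chains are lower than in EncT.

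For each gene, those with the most similar pattern were found by the root-mean-square (RMS) difference of levels over the 12 arrays, each gene centred on its own mean, among 18186 others. Nearest to Csf2rb were Pla2g7 (0.32), Clec4e (0.36), Ncf1 (0.39), Cd74 (0.42) and Fcgr3 (0.45). For Csf1r they were Ncf1 (0.21), Snn (0.24) and Cd9 (0.25), and for Csf2rb2 Tcp11l2 (0.30), Iigp1 (0.31) and Serpinb1a (0.31). Ncf1, a subunit of the phagocyte NADPH oxidase, was thus near both Csf2rb and Csf1r. Csf3r was matched most closely by Tifa (0.047), Cyp4f18 (0.048) and Ifi207 (0.092), all near the floor outside the arrays labelled iFoxA1Treg. Csf2ra was nearest to Zfas1 (0.11), 2410006H16Rik (0.11) and Prorsd1 (0.13), Il3ra to Angpt4 (0.063), Gpr107 (0.070) and Dnase1 (0.073), and Csf1 to Spo11 (0.13), Anxa2 (0.16) and Dubr (0.16). A small RMS is reached more easily by genes that vary little.

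Beyond the 7 genes, 68 genes of the pathway were measured in 4 lists, by the brightest probe set of each, and tested with limma. Between nFoxA1Treg and Treg, 0 of 68 passed at an adjusted p under 0.05 and 3 at an unadjusted p under 0.05, and 0.022% of all genes by brightest probe set passed. For nFoxA1Treg minus EncT, 3 were higher and 17 lower, and for Treg minus EncT, 2 were higher and 18 lower. Over all genes by brightest probe set, 11.6% and 9.4% passed in those 2 comparisons. Both comparisons share the EncT arrays and are not independent. With the arrays labelled iFoxA1Treg, 46 were higher and 15 lower than in nFoxA1Treg, 42 and 15 than in Treg, and 43 and 18 than in EncT, where 60.1%, 59.4% and 58.5% of all genes passed.

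GM-CSF itself (Csf2), the ligand of Csf2ra and Csf2rb, was higher in EncT than in either of these populations. Its level was 4.57, 4.93 and 5.17 in nFoxA1Treg, 5.17, 5.20 and 5.14 in Treg, and 6.57, 6.04 and 5.82 in EncT. The groups of nFoxA1Treg and Treg overlapped, and all EncT arrays were above both. Csf2 fell by 1.26 in nFoxA1Treg relative to EncT (SE 0.17, adjusted p = 0.000308, limma) and by 0.98 in Treg relative to EncT (adjusted p = 0.00238). Without EncT replicate 1 the differences were -1.04 and -0.76 (adjusted p = 0.000719 and 0.00727, limma). In the arrays labelled iFoxA1Treg it was 6.16, 6.01 and 5.94, which overlapped with EncT (difference -0.11, adjusted p = 0.629) and was above nFoxA1Treg by 1.15 (adjusted p = 2.65e-05).

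Interleukin 5, which signals through Il5ra and the shared beta chain, was also lower than in EncT. Its level was 5.41, 5.43 and 5.99 in nFoxA1Treg, 5.86, 5.91 and 5.75 in Treg, and 6.26, 6.46 and 6.33 in EncT. Il5 fell by 0.74 in nFoxA1Treg relative to EncT (adjusted p = 0.00531) and by 0.51 in Treg (adjusted p = 0.0487, limma). The call for Treg was lost when any 1 EncT or Treg array was left out (adjusted p = 0.0711 to 0.162 in limma), EncT replicate 1 included. Both calls were lost on the deposited scale with no offset (adjusted p = 0.138 for nFoxA1Treg and 0.382 for Treg). It was lowest in the arrays labelled iFoxA1Treg, at 4.22 to 4.64. Interleukin 3 (Il3) lay near the floor everywhere, with group means of 4.15, 4.33, 4.40 and 4.35 in iFoxA1Treg, nFoxA1Treg, Treg and EncT arrays, and did not pass in any comparison over all arrays. Il3 did pass as lower for iFoxA1Treg minus Treg without Treg replicate 1 or without iFoxA1Treg replicate 2 (adjusted p = 0.04075 and 0.03961, limma).

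Of the 10 measured ligands and receptors other than the 7 genes, 8 were higher and 1 lower in iFoxA1Treg minus nFoxA1Treg, 5 and 1 against Treg, and 7 and 1 against EncT. Of all genes by brightest probe set, 60.1%, 59.4% and 58.5% passed in these comparisons in either direction, so nothing is read from the counts. Il5ra, the alpha chain for interleukin 5, was 5.80 to 5.92 in the arrays labelled iFoxA1Treg, against 4.16 to 4.70 in the other 9, with differences of 1.46, 1.5 and 1.38. Kit, the stem cell factor receptor that mast cells also carry, was 6.82 to 6.91, against 4.31 to 4.83 in 8 of the other arrays and 5.76 in EncT replicate 1. The other of the 2 Kit probe sets did not pass in any comparison with the arrays labelled iFoxA1Treg. The erythropoietin receptor Epor rose by 0.74 relative to nFoxA1Treg (adjusted p = 3.13e-06, limma). G-CSF (Csf3), the ligand of Csf3r, averaged 5.02 in the arrays labelled iFoxA1Treg, against 4.64, 4.92 and 4.52 in nFoxA1Treg, Treg and EncT. Il34, the other known ligand of Csf1r, averaged 4.98, against 4.57, 4.93 and 4.66. Csf3 and Il34 were called higher in the arrays labelled iFoxA1Treg than in nFoxA1Treg and in EncT, did not pass against Treg, and each call was lost without at least 1 single array (adjusted p up to 0.208, limma).

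**Figure D4:**
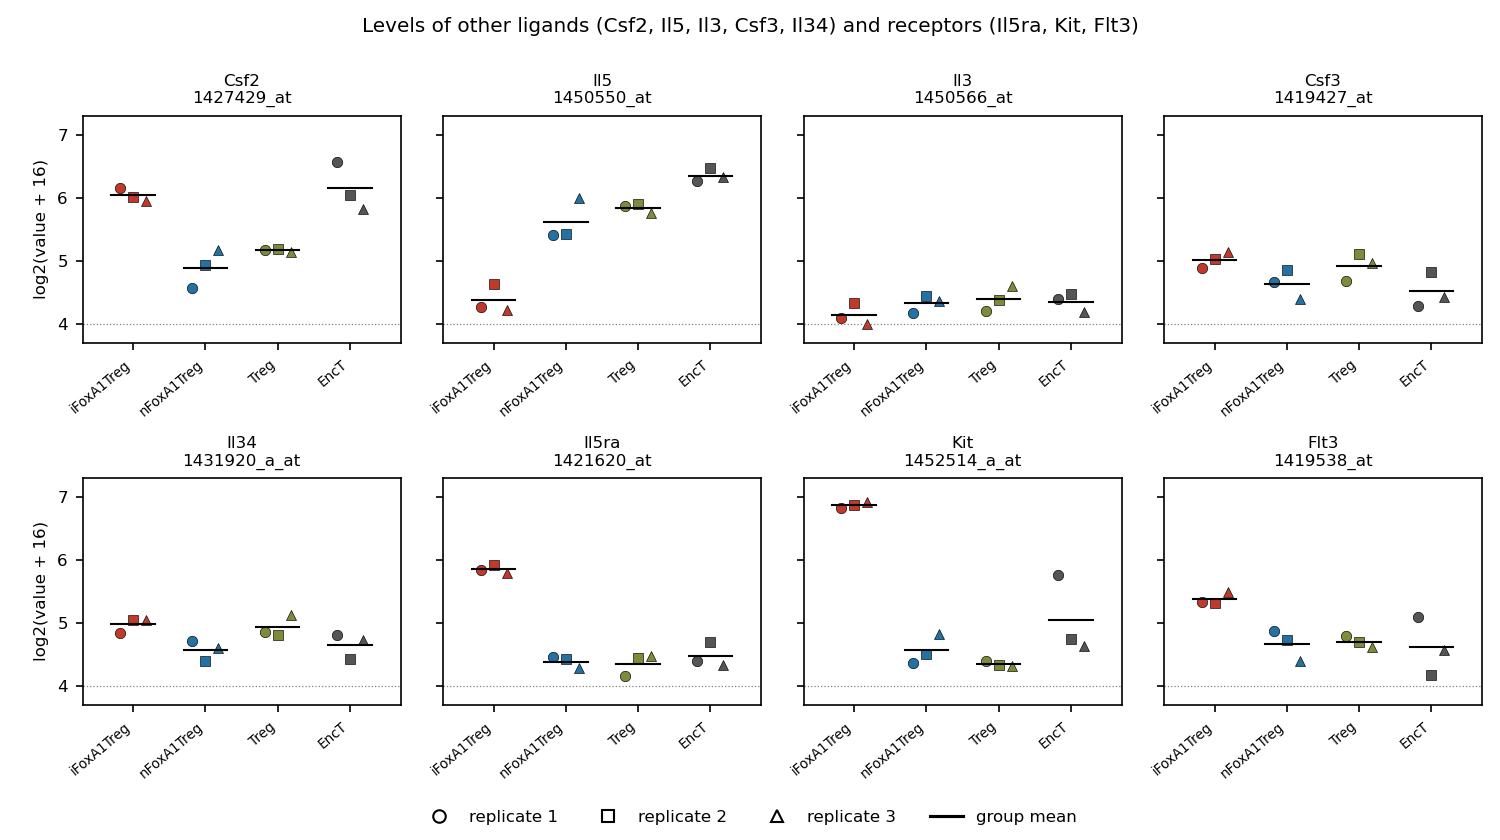
Levels, as log2(value + 16), of 5 other ligands and 3 other receptors in the 12 arrays by group; points are arrays, shapes are replicate numbers, bars are group means and the dotted line at 4 is the level of a value of 0. Csf2 and Il5 lie lower in nFoxA1Treg and Treg than in EncT, while Il5ra, Kit and Flt3 are highest in the arrays labelled iFoxA1Treg.

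Of 26 measured signal transducers, 6 were lower and 0 higher than in EncT in both nFoxA1Treg and Treg. The 6 were Tyrobp, Ptpn6, Sos1, Stat3, Pik3cd and Stat5b. Of all genes, 11.6% and 9.4% passed in these comparisons in either direction. Tyrobp, an adaptor of myeloid and NK cell receptors, lay at 4.0, 4.43 and 4.0 in nFoxA1Treg, at 4.15, 4.06 and 4.21 in Treg, and at 5.93, 5.50 and 4.45 in EncT. Its difference was -1.15 in both comparisons (SE 0.25, adjusted p = 0.00848 and 0.00989, limma), and both calls were lost when only the arrays of both groups were fitted (adjusted p = 0.0770 and 0.0621). Without EncT replicate 1 the differences were -0.83 and -0.83 (adjusted p = 0.0297 and 0.0318, limma). The EncT arrays ran in the order of their Fcer1a levels. The phosphatase Ptpn6 fell by 0.50 in nFoxA1Treg and by 0.44 in Treg relative to EncT, and the exchange factor Sos1 by 0.49 and 0.51. The Sos1 calls rested on the brightest of its 5 probe sets, and the other 4 did not pass in either comparison. Stat3, the main STAT of the G-CSF receptor, fell by 0.35 and 0.24, although another of its probe sets was called the other way, and the call for Treg was lost without Treg replicate 2 or 3 (adjusted p = 0.0985 and 0.0728). Stat5b, a main target of the beta chain's kinase Jak2, fell by 0.18 in nFoxA1Treg (adjusted p = 0.0429) and by 0.27 in Treg (adjusted p = 0.00542). The call for nFoxA1Treg was lost when any 1 EncT or nFoxA1Treg array was left out (adjusted p = 0.0533 to 0.109 in limma). The other of the 2 Stat5b probe sets did not pass in either comparison. Stat5a did not pass in either comparison, with differences of 0.01 and 0.03, nor did Jak2, with -0.16 and -0.14. Jak2 did pass for nFoxA1Treg under 5 alternatives, among them a filter on low values (adjusted p = 0.0296) and array weights (adjusted p = 0.0122), and for Treg with array weights (adjusted p = 0.0439, limma).

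In the arrays labelled iFoxA1Treg, 15 transducers were higher and 7 lower than in nFoxA1Treg, 14 and 7 against Treg, and 13 and 10 against EncT. The share of all genes that passed there was 60.1%, 59.4% and 58.5%. Syk, the kinase that B cell and myeloid receptors use in place of Zap70, lay at 11.71 to 11.89 there, against 4.50 to 4.81 in the other 9. Tyrobp lay at 11.30 to 11.47. The adaptor Dok2 fell by 3.28 relative to nFoxA1Treg, by 3.21 relative to Treg and by 3.28 relative to EncT (SE 0.06). Stat5a fell by 0.51, 0.53 and 0.50 in the same comparisons. Jak2 differed by -0.08 and -0.10 from nFoxA1Treg and Treg, neither past the test, and fell by 0.24 relative to EncT; with no normalisation between arrays the first 2 were -0.20 each and passed (adjusted p = 0.00374 and 0.00407, limma). Plcg2, a phospholipase of B cell and myeloid receptors, rose by 2.91 relative to EncT.

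Among 17 genes induced by or acting downstream of these receptors, 2 were higher and 6 lower than in EncT in each of nFoxA1Treg and Treg. Of all genes, 11.6% and 9.4% passed there in either direction. The immediate early gene Fos lay at 7.15, 7.37 and 6.83 in nFoxA1Treg, at 7.22, 6.91 and 7.0 in Treg, and at 4.48, 5.15 and 4.58 in EncT. It was the widest gap of the 17 in these comparisons, with differences of 2.38 and 2.31 (SE 0.16, adjusted p = 6.53e-07 and 8.51e-07, limma). Egr1, another immediate early gene, was higher by 0.46 and 0.53. Osm, a cytokine that STAT5 induces, fell by 0.96 in nFoxA1Treg and 0.70 in Treg relative to EncT, the kinase Pim2 by 0.85 and 0.82, and the feedback inhibitor Socs1 by 0.89 and 0.77. Socs2, also a STAT5 target, fell by 3.10 in the arrays labelled iFoxA1Treg relative to EncT, while Fos rose by 4.73, the helix-loop-helix inhibitor Id1 by 3.91 and the cyclin Ccnd1 by 2.88. In that comparison 12 of the 17 were higher and 4 lower, and 58.5% of all genes passed in either direction.

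Of 15 measured transcription factors of the myeloid lineage, 1 was higher and 3 lower in nFoxA1Treg relative to EncT, and 0 were higher and 4 lower in Treg. The share of all genes that passed was 11.6% and 9.4%. Spi1 was 5.17, 4.89 and 5.12 in nFoxA1Treg, 4.93, 5.05 and 4.96 in Treg, and 5.32, 5.49 and 5.35 in EncT. All EncT arrays were above the other 6. Spi1 fell by 0.41 in Treg relative to EncT (SE 0.10, adjusted p = 0.0220, limma) and differed by -0.33 in nFoxA1Treg (adjusted p = 0.0577). The nFoxA1Treg difference did pass under several alternatives, among them no offset (adjusted p = 0.0484), a filter on low values (0.0333) and array weights (0.0379, limma). The call for Treg was lost without Treg replicate 1 or 3 or EncT replicate 2 (adjusted p = 0.0563 to 0.0760 in limma). Maf fell by 0.62 in nFoxA1Treg and 0.44 in Treg, the second call lost without Treg replicate 3 (adjusted p = 0.0516); without EncT replicate 1 Maf differed by -0.30 in Treg, and 4 of its 6 probe sets did not pass there. Klf4, a factor of monocytes, rose by 0.41 in nFoxA1Treg, a call lost without nFoxA1Treg replicate 1 (adjusted p = 0.0575). The other of the 2 Klf4 probe sets did not pass there. Runx1 fell by 0.46 and 0.50, although of its 6 probe sets another was called the other way and 3 did not pass. With only the arrays of both groups fitted, the calls of Runx1 for nFoxA1Treg (adjusted p = 0.0568) and of Maf and Spi1 for Treg (adjusted p = 0.0564 and 0.0556, limma) were lost. Cebpa, Cebpb and Irf8 did not pass in either comparison with EncT, with differences between -0.37 and 0.03, and between -0.44 and 0.03 without EncT replicate 1. Irf8 did pass for nFoxA1Treg without nFoxA1Treg replicate 3 (difference -0.60, adjusted p = 0.0207, limma). In the arrays labelled iFoxA1Treg, 11 were higher and 3 lower in each of the 3 comparisons, where 60.1%, 59.4% and 58.5% of all genes passed. Relative to EncT, Irf8 rose by 3.60, Cebpb by 3.02, Spi1 by 1.93 and Cebpa by 1.70. Nfe2, a factor of the erythroid and megakaryocytic lineages, rose by 3.69 and Id2 fell by 2.58 in the same comparison.

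**Figure D5:**
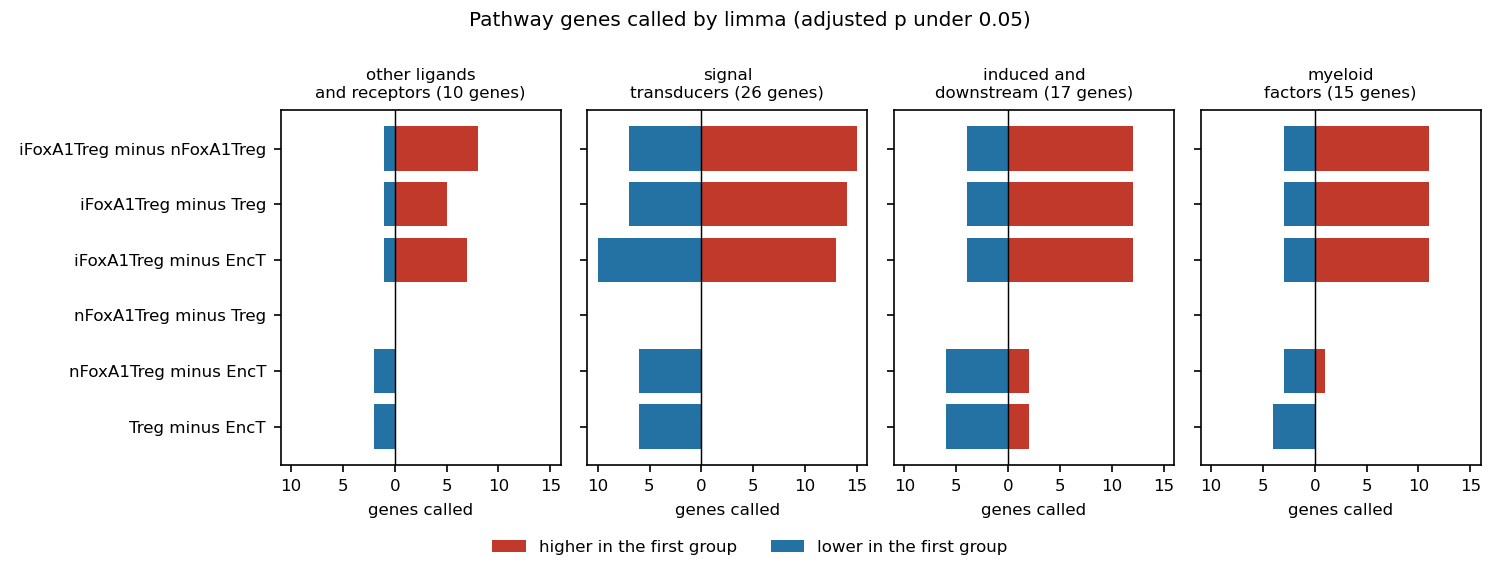
Numbers of genes with an adjusted p under 0.05 in limma's fit, by list and comparison; bars to the right count genes higher and bars to the left genes lower in the first-named group. No gene of the 4 lists passes between nFoxA1Treg and Treg, and in the comparisons of nFoxA1Treg and Treg with EncT most calls are lower.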

How the data were processed

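The deposited table holds 1 value per probe set and array on a log2 scale, made by the authors with PLIER, per the submitters' processing notes; per the labels' protocols, RNA was extracted with Trizol, treated with DNase and labelled as biotin cRNA. Base 2 was taken from the range of the values and is not given in the sources used here. Values were turned back to a linear scale, 16 was added, log2 taken and arrays quantile normalised (R 4.3.3). limma 3.58.1 fitted 4 group means to 12 arrays, with 8 residual degrees of freedom and an intensity trend, and Benjamini-Hochberg adjustment covered all 45037 probe sets, with no filter. The script was tested on simulated data. With no detection calls used, 3 arrays per group limit the precision.

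The 7 genes, the pathway and marker lists and the rules were chosen with earlier results of these data known. Named are the 7 genes, in each list and comparison the 3 called genes of smallest adjusted p (some given by count only), 12 set ligands, transducers and factors, and the checks; other names were chosen after their values were seen. Promoters were read for 5 of the 7 genes. Of 7 motifs searched there, 3 are described; TTNNGCAA was in 1 promoter, and GAGGAAGT, TGTGGT and a longer STAT pattern in none. For 10 of 114 called values of named pathway genes (Runx1, Stat3 and Stat5b), another probe set was called the other way, and for 26 of the 61 with another probe set, 1 or more did not pass. List genes without a probe set of 1 symbol were not analysed here.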

Additional observations from a re-analysis of the deposited data

How the results depend on the processing

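No difference of the 15 probe sets or of the pathway genes named by the stated rule changed sign with a call under any alternative. Of the values of these named pathway genes, 3026 kept their side of the threshold, 86 lost the call and 32 gained it. The other pathway genes were followed under the alternatives by count only. On the deposited scale with no offset, 3 of the 15 probe sets passed for nFoxA1Treg minus EncT and 2 for Treg minus EncT, against 6 each. There the Csf2rb 1455660_at difference was -3.86 for nFoxA1Treg (adjusted p = 0.0008, limma) and -1.45 for Treg, which did not pass (adjusted p = 0.1044). Csf2rb 1421326_at and Csf2rb2 did not pass for Treg either (adjusted p = 0.11 and 0.2455, limma). Both probe sets that passed for Treg were of Csf1. Csf2rb2 also lost its call for iFoxA1Treg minus EncT (adjusted p = 0.0657, limma). With a filter on low values, 4 probe sets passed between nFoxA1Treg and Treg, against 7. With 1 probe set per gene, which tests fewer features, the counts were 11143, 11027, 10828, 4, 2380 and 1985 over the 6 comparisons, with 6, 7 and 6 of the 7 genes for the arrays labelled iFoxA1Treg and 3 for Treg minus EncT. Fitting only the arrays of both groups gave 1984 and 2003 probe sets against EncT for nFoxA1Treg and Treg, 2 and 3 of the 15, and 13 and 12 pathway genes. Array weights gave 26 between nFoxA1Treg and Treg. Leaving out single arrays moved the count from 2610 to 5570 for nFoxA1Treg minus EncT (4502), from 1975 to 4987 for Treg minus EncT (3795) and from 5 to 41 for nFoxA1Treg minus Treg (7), and the 15 probe sets from 4 to 7 and from 3 to 6 against EncT. The lowest counts came without nFoxA1Treg replicate 1 (2610) or 2 (2641) and without Treg replicate 2 (1975) or 3 (2104), and the 41 without nFoxA1Treg replicate 3. The 15 probe sets fell to 3 for Treg minus EncT without Treg replicate 2 or EncT replicate 3. The numbers were taken to pair the samples only if the deviations of all 3 same-numbered pairs correlated above 0.1, and no comparison met this. All 3 were positive for Treg with EncT (r = 0.0563 to 0.165) and for the arrays labelled iFoxA1Treg with EncT (0.0159 to 0.108), and r was -0.161 to 0.0134 for nFoxA1Treg with EncT. With the replicate block, 4350 and 3647 probe sets passed against EncT, with 6 and 6 of the 15, and 24510, 24261, 23869 and 6 in the other comparisons. Every array correlated best with its own number in the pairs of EncT with the arrays labelled iFoxA1Treg and with Treg, as a hint from the data only. The cause of these shifts was not tested. Levels near 4 limit what can be seen of Csf3r, Csf2rb2 and Csf2rb in nFoxA1Treg and Treg.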
